A study of Mus musculus with 3 samples.

Results

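Cd5 and Cd6 encode surface receptors of T cells that carry scavenger receptor cysteine-rich (SRCR) domains and long cytoplasmic tails, and both dampen T cell receptor (TCR) signalling. They are 2 of the 6795 genes measured. They were chosen by symbol, after their ratios in this comparison were known, so those ratios are given as a description without a test. On 3 spotted 2-colour arrays, purified CD69hi thymocytes of wild-type B6 (C57BL/6) mice were compared with the unseparated thymocytes of Zap70-/- mice, which lack a kinase needed to pass on the TCR signal. The titles call the second RNA CD69lo. Purified wild-type cells were thus set against a whole mutant thymus, so genotype, sorting and cell makeup differ together and cannot be told apart. The sources used here give neither the age and sex of the mice nor whether each array had RNA of its own mice, so the spread between arrays may be technical.

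CD5 and CD6 belong to the same branch of the SRCR family, and their genes lie side by side. A thymocyte that receives a TCR signal raises surface CD5, and the amount it keeps follows the strength of its reaction with self ligands, which is why CD5 is used as a gauge of that strength. CD6 binds ALCAM (CD166) on thymic epithelium and antigen-presenting cells. Src-family kinases phosphorylate tyrosines in both tails, which then recruit phosphatases, ubiquitin ligases and adaptor proteins. CD5 is also present on a subset of B cells.

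Ratios are given on the log2 scale as CD69hi over Zap70-/-, so 1 stands for a 2-fold difference. The labels give the dye of each RNA (CD69hi in Cy3 on arrays 1 and 2, in Cy5 on array 3) but not which dye is the numerator. The deposited values were read as Cy5 over Cy3, and the sign of arrays 1 and 2 was turned. This direction is likely, not stated. It rests on Rag1, which cuts the TCR gene segments in immature thymocytes, and on Dntt, which adds bases to their joints. Rag1 had log2 ratios of -1.37, -1.42 and -0.77 on arrays 1, 2 and 3, and Dntt had -1.03, -1.77 and -0.35. Both lay below 0 on every array. Rag1 passed the limma test (-1.19 ± 0.36, SD, n = 3, adjusted p = 0.035). Its call was lost without array 1 (adjusted p = 0.13), without array 2 (0.18) and with arrays scaled to one spread (0.072). Dntt did not pass (-1.05 ± 0.71, adjusted p = 0.12). With the other numerator every sign below would turn. Before turning, array 3 correlated with array 1 at r = -0.25 and with array 2 at r = -0.40 across probes, while arrays 1 and 2 correlated at r = 0.61. These correlations run over genes, which are no replicates, and only describe the arrays.

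Cd5 was represented by 1 probe. Its log2 ratios were 4.26, 5.05 and 4.96 on arrays 1, 2 and 3, which correspond to 19.1-fold, 33.1-fold and 31.1-fold more signal from the CD69hi RNA. Array 1 was the lowest, and the other arrays lay close together. The mean was 4.75 ± 0.43 (SD, n = 3), or 27.0-fold. Cd5 had rank 15 among the 6795 genes on array 1, rank 5 on array 2 and rank 6 on array 3, and rank 2 by the mean, counted from the highest ratio. With the other numerator the same ranks would count from the lowest. By the mean, Nr4a3 alone stood higher (5.05 ± 2.24), with 3.22, 7.54 and 4.38 on the arrays, so that it exceeded Cd5 on array 2 only. No gene exceeded Cd5 on every array (0 of 6795).

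Cd6, also with 1 probe, had log2 ratios of 2.46, 2.63 and 2.69, or 5.48-fold, 6.18-fold and 6.45-fold. The arrays spanned 0.23 on the log2 scale, against 0.79 for Cd5. The mean was 2.59 ± 0.12 (SD, n = 3), or 6.03-fold. Cd6 had ranks 50, 44 and 49 on the arrays and rank 32 by the mean, and 17 genes exceeded it on every array. Of the 64 genes with a mean ratio of at least 2, 6 had a smaller SD than Cd6 and 41 a smaller SD than Cd5, with a median SD of 0.33. The Cd6 values were thus among the more even of the large ratios.

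**Figure D1:**
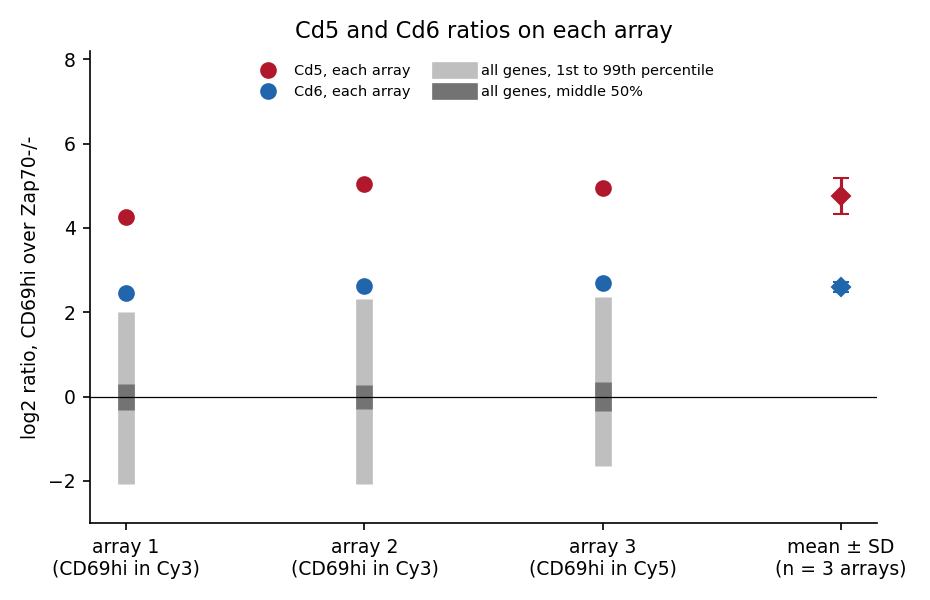
Log2 ratios (CD69hi over Zap70-/-, vertical axis) of Cd5 and Cd6 on each array (circles) and their mean with SD (diamonds, n = 3), beside the spread of all 6795 genes on each array (light bar, percentiles 1 to 99; dark bar, middle 50%). Cd5 lies between 4.26 and 5.05 and Cd6 between 2.46 and 2.69, all above the bars.

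The ranges of Cd5 and Cd6 did not overlap. Cd5 exceeded Cd6 by 1.80, 2.42 and 2.27 on arrays 1, 2 and 3, a mean difference of 2.16 ± 0.32 (SD, n = 3) on the log2 scale. These are differences of ratios. They say nothing of which transcript was more abundant, since no spot intensities were used and each probe has its own response. By dye, Cd5 had a mean ratio of 4.65 with the CD69hi RNA in Cy3 and a ratio of 4.96 with it in Cy5, a difference of 0.30. For Cd6 these values were 2.54 and 2.69, a difference of 0.15. The median size of that difference over all genes was 0.36. Array 3 alone had the CD69hi RNA in Cy5, so dye and array cannot be told apart here. Leaving out any 1 array kept Cd5 between 4.61 and 5.0 and Cd6 between 2.54 and 2.66.

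For comparison with transcripts shared by T cells, the chains of the TCR complex are given. The signalling chains, named after their values were seen, were Cd3d (-0.21, -0.10 and 0.30 on arrays 1, 2 and 3), Cd3e (-0.34, -0.17 and -0.13) and Cd3g (-0.08, -0.25 and 0.31), all near 0. Relative to the mean of these 3 chains, Cd5 stood at 4.47, 5.22 and 4.80 and Cd6 at 2.67, 2.80 and 2.53. These differences are a description, since the chains were picked with their values known. Of 9 measured genes for TCR, coreceptor and pan-T surface chains and their adaptor Lat, 0 passed limma at an adjusted p of at most 0.05. Before adjustment, 2 higher and 1 lower had p at or under 0.05. With 6.94% of all 8905 features called, 0 of 9 is near the background and is no result about these chains. The list median was -0.01, against 0.01 over all features. The coreceptor chain Cd8a had -1.13 ± 0.62 (adjusted p = 0.081) and the costimulatory receptor Cd27 0.52 ± 0.22 (adjusted p = 0.12). The test called Cd8a once array 3 was left out (-1.47, adjusted p = 0.043) or a dye term was added (0.048). In RNA from a mixture of cells, more cells of a type and more RNA per cell cannot be told apart.

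Of 13 measured relatives in the SRCR family, 1 rose, 1 fell and 11 did not pass (limma), against 4.13% of all features higher and 2.81% lower. With 1 call in each direction, the count is too small to be a result about the family. Not passing does not show equal levels. The median of the 13 was 0.07. Lgals3bp, a secreted galectin-binding glycoprotein, had 1.15, 1.28 and 1.61 on arrays 1, 2 and 3 (1.35 ± 0.24, adjusted p = 0.020). The transmembrane serine protease gene Tmprss4 had -2.09, -2.50 and -0.91 (-1.83 ± 0.82, adjusted p = 0.047). Neither passed without array 1 (Lgals3bp adjusted p = 0.056, Tmprss4 0.14) or without array 2 (0.087 and 0.13). Looked at after the values were seen, the macrophage scavenger receptors Cd163 (0.32 ± 0.18) and Marco (0.07 ± 0.42) and the macrophage-secreted Cd5l (-0.07 ± 0.11) did not pass. No measured relative reached the Cd6 mean, and the highest was Lgals3bp.

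Genes for ligands ascribed to CD5 and CD6 were measured in 3 cases. Alcam, the CD6 ligand, had ratios of 0.27, 0.35 and -0.15 as the mean of 2 probes (0.15 ± 0.27, adjusted p = 0.62), and the probes' own means were 0.42 and -0.11. Cdcp1, encoding CD318, a second ligand of CD6, had 0.46, 0.37 and -1.04 (-0.07 ± 0.84, adjusted p = 0.92). Both lay on either side of 0. Cd72, a B cell receptor proposed as a CD5 ligand, had 0.82, 1.12 and 0.92 and rose (0.95 ± 0.15, adjusted p = 0.031). It did not pass without array 1 (adjusted p = 0.11) or array 2 (0.24). Cd72 was also the only one of 10 measured B cell markers to pass, with a list median of 0.33. With 6.94% of all features called, 1 of 10 is near the background. On every array, 4 of the 10 lay above 0 and 0 lay below it. The B cell receptor chain Cd79a, also named after its values were seen, had 0.70, 2.10 and 1.40 and did not pass (1.40 ± 0.70, adjusted p = 0.062). Means of the 10 ranged from -0.35 to 1.40, and 2 of them passed when unstable extreme ratios were left out. Jchain, the joining chain of secreted antibodies, is outside the list and was named after its values were seen; its ratios were 1.47, 3.88 and 2.80 (2.71 ± 1.21, adjusted p = 0.044), above the Cd6 mean. Its call was lost without array 2 (0.057), without array 3 (0.11) and with a dye term (0.076). The part of B cells in the Cd5 ratio was not tested.

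Of 15 measured genes whose products bind or modify the tails of CD5 or CD6, or act just downstream of them, 1 rose and 1 fell by limma, the other 13 showed no call, and the median was 0.30. With 4.13% of all features higher and 2.81% lower, 1 call in each direction is close to the background. That concerns the calls alone: 10 of the 15 lay above 0 on every array and 1 lay below it. Fyn, a Src-family kinase, had 1.39, 1.65 and 1.68 and rose (1.57 ± 0.16, adjusted p = 0.012). Cbl, a ubiquitin ligase that takes part in CD5 signalling, had -1.32, -1.23 and -0.81 as the mean of 2 probes and fell (-1.12 ± 0.27, adjusted p = 0.031). The call of Fyn was lost without array 2 (adjusted p = 0.060). That of Cbl was lost without array 1 (0.13), without array 2 (0.18) and with scaling (0.072). The casein kinase 2 subunits Csnk2a1 (-0.13 ± 0.29) and Csnk2a2 (-0.09 ± 0.14) and the phosphatase Ptpn6 (0.12 ± 0.22), named after their values were seen, did not pass.

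The list of other inhibitory receptors also holds inhibitory transmembrane adaptors and Cd200, a ligand of such a receptor. Its genes rose in 6 of 17 measured cases and fell in 0 (limma), against 4.13% and 2.81% of all features. The other 11 did not pass, and the median was 0.44. Before adjustment, 10 higher and 1 lower had p at or under 0.05, a looser cut to which 4.13% and 2.81% do not apply. The 6 that rose were Btla, Cd200, Cd160, Cd72 (also in the ligand and B cell lists) and, named after their values were seen, Lax1 and Lilrb4a. Btla, an inhibitory receptor that binds HVEM, was the highest, with 1.77, 2.42 and 1.66 (1.95 ± 0.41, SD, n = 3, adjusted p = 0.016). Cd200, the ligand of an inhibitory receptor of myeloid cells, had 1.05, 1.06 and 1.21 (1.11 ± 0.09, adjusted p = 0.020). Cd160 had 1.14, 1.21 and 0.67 (1.01 ± 0.29, adjusted p = 0.039), but its probes disagreed, at 0.24 and 1.78, and the lower one alone did not pass (adjusted p = 0.69). Cd5 and Cd6 both had larger mean ratios than any of these 17 genes. The number of risers was 4 when array 3 was left out. It was 1 when array 1 was dropped and 1 when array 2 was. In the latter 2 fits it was Btla that passed (adjusted p = 0.041 and 0.039), while Cd200 did not (0.088 and 0.13). Why these calls were lost was not tested.

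Intracellular negative regulators of TCR signalling rose in 6 of 27 cases and fell in 2 (median 0.32), against 4.13% and 2.81% of all features. Those that rose the most were Nab2, which represses Egr-driven transcription, at 2.51, 3.38 and 3.04 (2.98 ± 0.44, adjusted p = 0.0089), and the MAP kinase phosphatases Dusp2 at 1.66, 1.78 and 2.12 (1.86 ± 0.24, adjusted p = 0.011) and Dusp6 at 1.43, 1.92 and 1.73 (1.69 ± 0.25, adjusted p = 0.013). Socs3, an inhibitor of cytokine signalling, fell at -2.07, -1.70 and -2.02 (-1.93 ± 0.20, adjusted p = 0.0095). Cbl was the other that fell. Another 19 did not pass. Among them Sla2, named after its values were seen, had the lowest mean of the list but was uneven. It had -5.27, -1.46 and -2.73 on arrays 1, 2 and 3 (-3.15 ± 1.94, adjusted p = 0.082). Nab2 alone exceeded the Cd6 mean in this list. Without array 2, 2 rose and 2 fell, and Dusp6 did not pass (adjusted p = 0.055).

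Most genes of the list for TCR signal strength were high, as Cd5 and Cd6 were. Of 18 measured genes induced with the strength or recency of a TCR signal, 12 rose and 0 fell by limma, 6 showed no call, and the median was 1.75. Among all features, 4.13% passed as higher and 2.81% as lower. Before adjustment, 15 higher and 1 lower of the 18 had p at or under 0.05, a looser cut to which these shares do not apply. Nr4a1, an orphan nuclear receptor whose reporter is used beside CD5 to read TCR signals, had 3.79, 3.71 and 3.84 (3.78 ± 0.06, SD, n = 3, adjusted p = 0.0051). Tnfrsf9, the costimulatory receptor 4-1BB, had 2.11, 3.16 and 3.27 (2.85 ± 0.64, adjusted p = 0.014). Nr4a3 passed (adjusted p = 0.041), but its call was lost when array 3 was left out (0.090), with a dye term (0.075) and with robust shrinkage (0.088). It dropped out of the fit without unstable extreme ratios, and Nab2 is a member here too. Without array 3, 10 of the list rose and 1 fell, and with a dye term 12 rose and 1 fell. Cd6 was exceeded by 6 of the 18, and Cd5 by Nr4a3 alone. The list was drawn up with earlier results of these arrays known, so its count is no independent support for the direction.

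**Figure D2:**
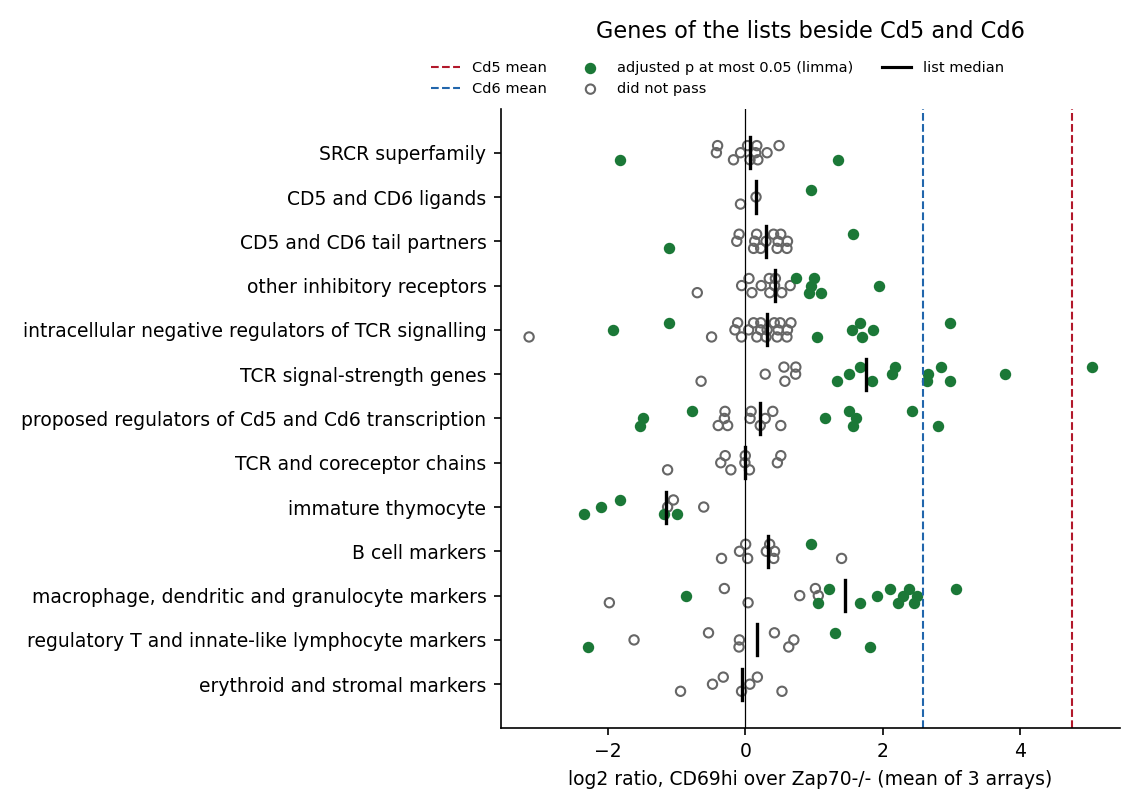
Mean log2 ratio of 3 arrays (CD69hi over Zap70-/-, horizontal axis) for each measured gene of the lists (rows), with filled circles for genes that passed limma at an adjusted p of at most 0.05, open circles for the others and a black bar at the list median. The dashed lines mark Cd6 at 2.59 and Cd5 at 4.75, and most lists lie below both.

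Among 19 measured transcription factors of families proposed to act on Cd5 or Cd6, or to direct thymocyte selection, 6 rose and 3 fell. Another 10 showed no call, the median was 0.22, and 4.13% of all features were higher and 2.81% lower. Id2, an inhibitor of E proteins, had 2.34, 2.96 and 3.14 (2.81 ± 0.42, adjusted p = 0.0090). Klf2, a factor of T cell egress, had 2.10, 2.40 and 2.78 (2.43 ± 0.34, adjusted p = 0.0094). Gata3, needed for the CD4 lineage, had 1.50, 1.66 and 1.67 (1.61 ± 0.10, adjusted p = 0.010), and Nfatc1, an effector of calcium signalling, had 1.34, 1.62 and 1.74 (1.57 ± 0.21, adjusted p = 0.014). The 3 that fell, named after their values were seen, were Nfatc3 (-1.53 ± 0.23), Ets2 (-1.50 ± 0.50) and Runx1 (-0.78 ± 0.09). Members of the Ets, Runx and NFAT families thus stood on both sides of 0 or did not pass. Without array 1, 5 rose and 0 fell. Without array 2, 2 rose and 0 fell, and neither Gata3 (adjusted p = 0.052) nor Nfatc1 (0.062) passed.

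A stretch of the Cd5 promoter is shown, in which motifs of some of these families (Ets, E proteins, Runx and GATA) were searched. No motif of Klf or NFAT factors was searched. The stretch holds 198 bases, from RefSeq, build GRCm38.p6, chr19:10739027-10739224 on the minus strand, read 5′ to 3′. It ends 53 bases before the annotated start from which distances are counted. That start lies inside the annotated Cd5 gene model, and the stretch covers only bases upstream of the model. Of the 2 genes, 1 (Cd5) matched the promoter table. Capitals mark the core motif of Ets factors, GGAA, on either strand (TTCC is its reverse complement).
Cd5 promoter: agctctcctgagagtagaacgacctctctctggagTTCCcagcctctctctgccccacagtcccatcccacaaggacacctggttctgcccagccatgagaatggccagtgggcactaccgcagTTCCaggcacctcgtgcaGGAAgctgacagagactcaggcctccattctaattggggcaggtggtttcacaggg

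The Ets core GGAA occurred 3 times in this window, 215, 126 and 108 bases before the start. Of 32851 promoter windows of the same length in the table, 89.0% held at least 1 match and 39.6% held at least 3. The E-box CANNTG, the motif of E proteins, occurred 2 times (174 and 69 bases before the start), and 58.7% of windows held it. The Runx motif TGNGGT occurred 1 time (133 bases before the start), with 33.9% of windows holding it. The GATA motif GATAA and the TATA motif TATAA had 0 matches in these letters, and 19.2% and 17.7% of windows held them. Both strands were searched, and none of the matches in the Cd5 window overlap. Such short motifs are common, and a match is not a binding site.

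Cd5 and Cd6 are next to each other on chromosome 19, with 0 protein-coding genes between them. Of the 24 protein-coding genes nearest to the pair (12 on each side), 7 were measured. In limma 0 of the 7 passed (before adjustment, 3 higher and 1 lower had p at or under 0.05), and their median was 0.44. With 6.94% of all features called, 0 of 7 is near the background and is no result about the neighbours. Ddb1, a DNA damage-binding protein, was the highest of them but uneven, at 3.68, -0.10 and 2.44 on arrays 1, 2 and 3 (2.01 ± 1.93), and passed without array 2 (3.06, adjusted p = 0.018). The splicing factor Prpf19 (0.57 ± 0.08) and Ms4a8a (0.62 ± 0.08), of the membrane-spanning Ms4a family, lay above 0 on every array and passed with a dye term (adjusted p = 0.046 and 0.042). On the same side of the pair as Ddb1, Pga5, a pepsinogen (0.27 ± 0.51), and Cyb561a3, a cytochrome b561 protein (0.44 ± 0.61), did not pass. Nor did the ciliary genes Tmem216 (-0.16 ± 0.47) and Tmem138 (-0.55 ± 0.16), also on that side. All 7 had lower means than Cd6.

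**Figure D3:**
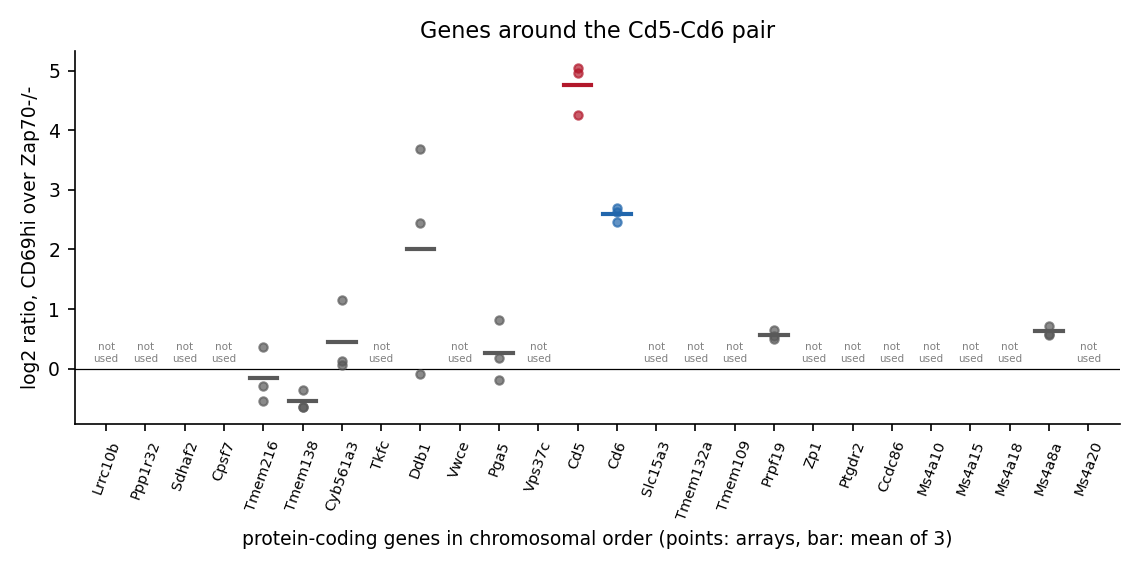
Log2 ratios (CD69hi over Zap70-/-, vertical axis) of Cd5, Cd6 and the protein-coding genes on each side, in chromosomal order and not to scale, with points for the 3 arrays and bars for their mean. Cd5 and Cd6 stand above the 7 measured neighbours, although single arrays of Ddb1 reach 3.68.

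The genes nearest to each member were taken as those with the smallest Euclidean distance over the ratios of the 3 arrays. Cd5 had no close neighbour. Nr4a1 was the nearest, at a distance of 1.81, followed by Socs4, of the cytokine signalling suppressor family (1.94), Ms4a4b, a surface protein of maturing T cells (2.29), the creatine kinase Ckb (2.30) and the chemokine receptor Ccr7 (2.63). All 5 had lower means than Cd5, from 3.25 for Ccr7 to 3.78 for Nr4a1. Cd6 itself was 3.78 away from Cd5.

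Cd6 had close neighbours of different kinds. The nearest were Apoe, the lipid carrier apolipoprotein E (distance 0.23; 2.31, 2.50 and 2.57 on the arrays), and Lyz2, the lysozyme of macrophages and granulocytes (distance 0.28; 2.52, 2.57 and 2.42). Itm2a, a membrane protein induced during positive selection, followed at 0.30 with 2.45, 2.55 and 2.98. Tox, a nuclear factor required for CD4 lineage cells, was at 0.32 with 2.63, 2.82 and 2.51, and the p38 kinase gene Mapk11 at 0.37 with 2.41, 2.90 and 2.94. The list of nearest genes to Cd6 thus held macrophage transcripts beside transcripts of selected thymocytes. With 3 arrays, likeness reflects mainly the size of the ratio.

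**Figure D4:**
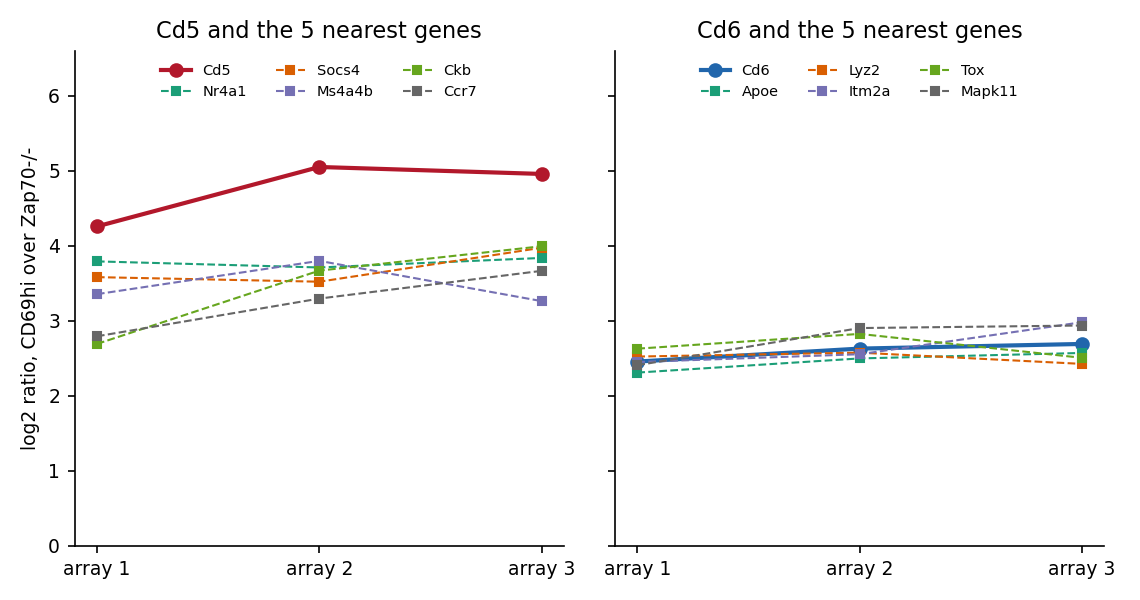
Log2 ratios (CD69hi over Zap70-/-, vertical axis) on arrays 1, 2 and 3 for Cd5 (left) and Cd6 (right), each with its 5 nearest genes by Euclidean distance; lines join the values of one gene. Cd5 lies above its neighbours on every array, and the neighbours of Cd6 lie between 2.31 and 2.98.

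Markers of other cells moved with these ratios in part. Of 18 macrophage, dendritic cell and granulocyte markers, 11 rose and 1 fell, against 4.13% and 2.81% of all features. The other 6 showed no call, the median was 1.44 and means ran from -1.98 to 3.07. Ccl22, a chemokine of dendritic cells, had 3.07 ± 0.37 (adjusted p = 0.0068) and was the only one to exceed Cd6. Lyz2 (2.51 ± 0.08), Apoe (2.46 ± 0.14) and the MHC class II chain H2-Aa (2.39 ± 0.29) followed. The granulocyte genes, named after their values were seen, went the other way. S100a8 was the 1 that fell (-0.86 ± 0.27, adjusted p = 0.049). S100a9 (-1.98 ± 1.17, adjusted p = 0.079) and Mpo (-0.31 ± 0.11, adjusted p = 0.25) did not pass. These 3 lay below 0 on every array. The part of the listed cell types in the ratios of Cd5 and Cd6 was not tested. The list reached the level of Cd6 but not that of Cd5, which exceeded Ccl22 on every array.

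Of 10 regulatory T cell and innate-like lymphocyte markers, 2 rose and 1 fell (median 0.17), where 4.13% of all features were higher and 2.81% lower. The cytokine receptor chain Il2rb had 0.96, 2.15 and 2.35 (1.82 ± 0.76, adjusted p = 0.041), the chemokine Xcl1 1.02, 1.41 and 1.50 (1.31 ± 0.25, adjusted p = 0.022) and the granzyme Gzma -2.77, -2.90 and -1.21 (-2.29 ± 0.94, adjusted p = 0.039). None of these passed without array 2 (adjusted p = 0.13, 0.12 and 0.087), Il2rb did not without array 3 (0.089), and Gzma did not without array 1 (0.11). Of the regulatory T cell markers, named after their values were seen, Nrp1 (-1.62 ± 0.81, adjusted p = 0.060) and Il2ra (-0.54 ± 0.89, adjusted p = 0.43) did not pass. Foxp3, Ikzf2 and Ctla4 were not among the measured genes, so the count says little about regulatory T cells. Of 7 erythroid and stromal markers, 0 passed limma (before adjustment, 1 higher and 2 lower had p at or under 0.05), with a median of -0.06. With 6.94% of all features called, 0 of 7 is near the background. Alas2, of haem synthesis, had 0.53 ± 0.21 (adjusted p = 0.11). The epithelial marker Epcam had -0.94 ± 0.60 (adjusted p = 0.11), and passed without array 3 (-1.29, adjusted p = 0.029).

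Immature thymocyte genes lay opposite to Cd5 and Cd6. Of 8 measured genes 5 fell and 0 rose by limma, against 2.81% and 4.13% of all features. The other 3 showed no call, the median was -1.16, and all 8 were below 0 on every array. Rag1 and Dntt set the direction and are among the 8, so the list is no independent support for it. Ly6d, a surface marker, had -2.98, -2.75 and -1.34 (-2.35 ± 0.88, adjusted p = 0.033), the aquaporin Aqp11 -2.34, -2.43 and -1.56 (-2.11 ± 0.48, adjusted p = 0.017) and Arpp21, a phosphoprotein gene, -1.75, -2.21 and -1.51 (-1.82 ± 0.35, adjusted p = 0.015). The number that fell was 2 without array 1, 2 without array 2 and 3 with scaling. Ly6d did not pass in these fits (adjusted p = 0.084, 0.073 and 0.082).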

How the data were processed

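The deposited table gave 1 log ratio per probe and array for 9596 probes on 3 arrays of one print. The authors' deposited values are taken as log2. The sources used here do not give their base, background correction, spot filter or normalization, and with another base the folds would change. Array medians were -0.004, -0.005 and -0.002, and 0 values were missing. Dim spots were not removed, since no intensities were used, and the number of arrays limits the precision. The probes with 1 gene symbol (7486) were averaged per symbol. The 483 with several symbols and the 1627 with none stood alone, which gave 8905 features. Spotted cDNA probes can bind related transcripts, so values of gene families are uncertain.

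Each feature was fitted with limma 3.58.1 in R 4.3.3 (lmFit, eBayes, 1 coefficient, 2 residual degrees of freedom), with two-sided p-values, Benjamini-Hochberg adjusted over 8905 features at a threshold of 0.05. "Rose" and "fell" mean passing this test. Counts before adjustment use a looser cut. The shares of 4.13%, 2.81% and 6.94% of all features are after adjustment and are no background for those counts. The members, the gene lists and the naming rule were chosen with earlier results of these data known. The rule named, in each list, the passing genes of largest ratio (at most 4) or, in lists without any, the 2 of largest moderated t, all ligands and measured neighbours, and the 5 nearest genes of each member. Cd5 and Cd6 were left out of every list count, and lists overlap. Cd69 and Zap70 were not analysed here.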

Additional observations from a re-analysis of the deposited data

How the results depend on the processing

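Cd5, Cd6 and their difference moved by less than 1 SD in every alternative but 1. With array 3 not turned against the others they were 1.45, 0.80 and 0.65, and 0 features and 0 genes of any list passed, which follows from averaging ratios of opposite sign. Each ratio already pairs the 2 RNAs within an array, and no further block was fitted. Fits that leave out 1 array or add a dye term have fewer residual degrees of freedom than the main fit. The 618 calls were 119 to 692 when 1 array was left out, 370 with scaling and 1076 with a dye term. Of the calls, 59.5% were higher in CD69hi RNA, but 40.9% without array 3, which turned the balance (283 higher, 409 lower). This share was 84.1% without array 1, 79.8% without array 2 and 77.0% with scaling. When 1 array was left out, calls ranged from 0 to 2 in the SRCR list, 0 to 1 for ligands, 0 to 2 for tail partners, 1 to 4 for inhibitory receptors, 4 to 6 for intracellular regulators, 2 to 8 for transcription factors, 0 to 1 for TCR chains, 2 to 6 for immature genes, 0 to 1 for B cell markers, 0 to 3 for regulatory and innate-like markers, 0 to 1 for erythroid and stromal markers and 0 to 1 for the neighbours. In the same fits, calls ranged from 9 to 11 for TCR signal strength and 9 to 12 for macrophage, dendritic cell and granulocyte markers. With scaling, 1 SRCR gene, 1 tail partner and 3 immature genes passed. With a dye term 1 TCR chain, 2 stromal or erythroid markers and 2 neighbours did. Without unstable extreme ratios (above 4 on an array and differing by over 2), 2 B cell markers passed. The cause of these changes was not tested. Of 38 named genes that passed, 9, 16 and 3 did not without arrays 1, 2 and 3.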
